A study of Mus musculus with 9 samples.

Results

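The libraries of sort 1, also labelled passage 1, were compared with those of sorts 2 and 3, labelled passages 2 and 3. Sort 1 gave 3 of the 9 libraries of the series, chosen by their titles, and the later sorts gave the other 6. Every library came from TVZ neuroglial progenitors, where TVZ stands for the third ventricular zone, the germinal zone along the midline ventricle of the forebrain. The mice carried Nestin-CFPnuc, a transgene in which the Nestin promoter drives a cyan fluorescent protein, were kept on a C57/BL6 background, were harvested on postnatal day 1 and received no treatment. Each sort gave 1 library of CD133+ cells, 1 of Nestin+ cells and 1 of CD133+Nestin+ cells, so the populations were the same in each sort. The sort number and the passage number are equal in every label, so effects of the sort, of the preparation and of the culture cannot be told apart. The labels do not tell whether different animals or cultures lie behind the libraries, so the p-values cover only the scatter among these libraries, which may be technical. The question is not one the labels pose, and the comparison describes how much of the variation between libraries of 1 population followed the sort.

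CD133, encoded by Prom1, is a surface protein of neural stem cells and ependymal cells, and Nestin is an intermediate filament of neural progenitors. The ventricular wall of a newborn mouse holds radial glia and their descendants, among them ependymal cells, astrocytes, oligodendrocyte precursors and neuroblasts, and it lies beside vessels and microglia, the resident macrophages of the brain. RNA is also unequal in place: messenger RNAs are exported to the cytoplasm, while many long noncoding RNAs (long transcripts with no protein product) stay in the nucleus. Immediate early genes, such as Fos and Egr1, encode short-lived transcription factors that cells switch on within minutes of a stimulus, with no need of new protein.

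Both marker genes of the sort were at like levels in the first and the later sorts. Levels are in CPM (reads scaled to a fixed library total), a unit inferred from the deposited values, and are listed here and below for CD133+, then CD133+Nestin+, then Nestin+ cells. Prom1 was at 146, 142 and 58.1 CPM in sort 1, at 182, 116 and 39.3 CPM in sort 2 and at 179, 181 and 55.8 CPM in sort 3. Nes was at 39.5, 210.2 and 195 CPM in sort 1, at 56.9, 172 and 157 CPM in sort 2 and at 57.3, 212 and 166 CPM in sort 3. Nes was lowest in the CD133+ library and Prom1 lowest in the Nestin+ library of every sort, which is the order the labels give. Sort 1 differed from the later sorts by a log2 of -0.01 ± 0.21 (SE) for Prom1 and by -0.04 ± 0.20 for Nes, with a two-sided exact permutation p of 0.926 for each over the 27 arrangements within populations.

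Of 18329 genes listed, 16143 reached 1 CPM in at least 3 libraries and were tested. Population accounted for 50.4% of the sum of squares of log2(CPM + 1), sort 1 against the later sorts for 21.1%, sort 2 against sort 3 for 8.56% and the remainder for 19.9%. The listed genes held 87.3%, 87.6% and 87.3% of the CPM total in sort 1, against 77.7%, 65.9% and 70.4% in sort 2 and 79.3%, 81.0% and 77.6% in sort 3. The groups did not overlap, and the difference was 12.1 percentage points (two-sided exact permutation p = 0.037, the smallest that 27 arrangements can give). This share separates the same groups as the differences given below, and its part in them was tested only by rescaling each library to its listed genes. The sort 2 CD133+Nestin+ library stood apart, with correlations of 0.802 to 0.896 with the other libraries. The number of raw reads is not stated, and depth was not worked out from the values.

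Sort 1 differed from the later sorts in 1369 genes (8.48% of those tested), by limma with population as covariate and a Benjamini-Hochberg adjusted p under 0.05. Of these, 407 were higher in sort 1 (2.52%) and 962 were lower (5.96%). In each of the 3 populations the sort 1 library lay on the called side of both later libraries for all 407 higher genes and for 958 of the 962 lower ones. Over all genes tested, sort 1 lay above both in all populations for 17.7% and below both for 17%. The calls were made on these same values, so the agreement follows largely from the selection and is no separate support. Over all genes tested the median difference was a log2 of 0.03. The split depended on the scale: with libraries centred on their medians 1037 genes were higher and 861 lower, and after rescaling to the listed genes 269 were higher and 1614 lower. Those scalings placed the median of all genes at 0.10 and -0.17.

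The number of calls also rested on single libraries, since each population has 1 library in each sort. Without the sort 1 CD133+Nestin+ library 134 genes were called, without the sort 1 Nestin+ library 141 and without the sort 1 CD133+ library 578. It was 706 without the sort 2 CD133+ library, 669 without the sort 2 Nestin+ library and 700 without the sort 3 Nestin+ library. It rose to 2604 without the sort 2 CD133+Nestin+ library, the one that stood apart, and to 2191 without the sort 3 CD133+Nestin+ library. Of the 1369 genes, 1364 were among the 2604.

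The largest falls in sort 1 were in long noncoding RNAs and in a set of coding genes. Of 13 genes tested on a list of nuclear long noncoding RNAs, 11 were lower in sort 1 and 0 were called higher. The list was chosen with earlier results of these data known, and it also holds Rn7sk, a small RNA. The median difference of the 13 genes was a log2 of -1.70 against 0.03 over all genes. Sort 1 lay below both later sorts in all 3 populations for 12 of them, against 17% of all genes tested. The 11 calls became 12 without the sort 2 CD133+Nestin+ library, 12 after rescaling to the listed genes, 5 without the sort 1 CD133+Nestin+ library and 6 without the sort 1 Nestin+ library.

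Firre, an X-linked RNA that takes part in the organization of chromatin (chromosome X, 50555744 to 50635321, minus strand, GRCm38), had the smallest adjusted p of all genes. It was at 1.14, 1.47 and 2.82 CPM in sort 1, at 31.6, 26.9 and 40.2 CPM in sort 2 and at 28.1, 31.1 and 42.2 CPM in sort 3. Every later library was thus above every sort 1 library, at a log2 difference of -3.64 ± 0.21 (SE, limma adjusted p = 2.71e-05). Neat1, the scaffold of nuclear paraspeckles (chromosome 19, 5824708 to 5845478, minus strand), was at 1.11, 0.724 and 0.991 CPM in sort 1, at 25.7, 38.4 and 18.6 CPM in sort 2 and at 16.8, 20.3 and 15.2 CPM in sort 3. The difference was -3.53 ± 0.29 (adjusted p = 0.00024, limma), again with no overlap between groups.

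Miat, a nuclear RNA of neural cells (chromosome 5, 112213228 to 112229395, minus strand), was at 1.23, 1.59 and 1.64 CPM in sort 1, at 15.6, 79.3 and 52.8 CPM in sort 2 and at 20.2, 30.9 and 49.0 CPM in sort 3. In the later sorts it was lowest in CD133+ cells, while in sort 1 the populations lay between 1.23 and 1.64 CPM. The difference was -3.89 ± 0.33 (limma adjusted p = 0.000272). Meg3, an imprinted RNA read from the maternal copy (chromosome 12, 109541001 to 109571726, plus strand), was at 11.1, 4.51 and 7.61 CPM in sort 1, at 51.4, 221 and 139.5 CPM in sort 2 and at 75.3, 70.8 and 156 CPM in sort 3. It differed by -3.67 ± 0.41 (limma adjusted p = 0.000921).

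The same direction held for RNAs at other levels. Snhg11 and Snhg20, host genes of small nucleolar RNAs, differed by -2.56 and -2.93, and Snhg20 was at 1.04, 1.59 and 2.27 CPM in sort 1 against 10.2 to 34.1 CPM in the later libraries. Malat1, an abundant RNA of nuclear speckles named here after its values were seen, was at 894, 1083 and 1306 CPM in sort 1, at 3217, 4549 and 7682 CPM in sort 2 and at 3242, 3451 and 3830 CPM in sort 3. Its difference was -1.93 ± 0.26 (limma adjusted p = 0.00249). The 2 members not called were Xist, which silences the inactive X chromosome, at -1.01 ± 0.31 (adjusted p = 0.0639), and Rn7sk, a small RNA that holds back transcription elongation, at 0.89 ± 0.45 (adjusted p = 0.22). Xist overlaps Tsix on the other strand, and no source used here says whether strand was used in the counting.

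**Figure D1:**
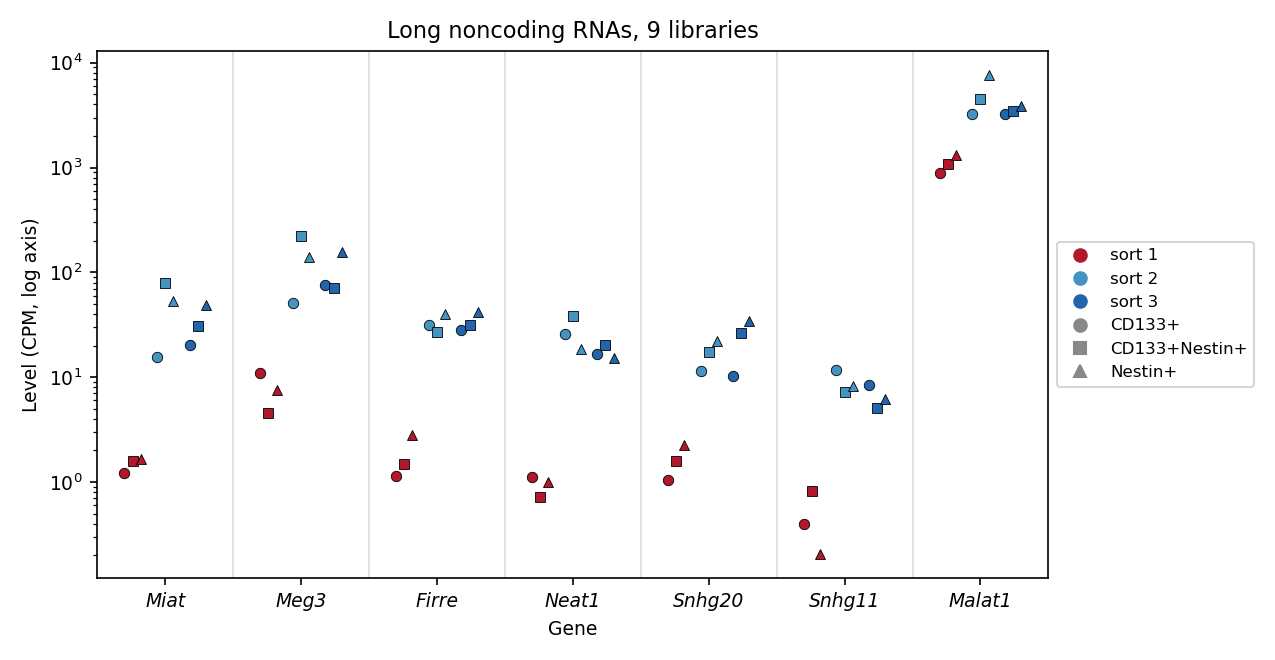
Level of 7 long noncoding RNAs (x axis) in CPM on a log axis (y axis), with 1 point for each of the 9 libraries, colours for sorts and shapes for populations. The 3 sort 1 points of each gene lie below all 6 later points, as for Firre at 1.14 to 2.82 CPM against 26.9 to 42.2 CPM.

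Of the 12 coding and noncoding genes with the largest falls, 5 were long noncoding RNAs (Miat, Meg3, Firre, Neat1 and Snhg20) and 7 coded for proteins. Clk1, a kinase that phosphorylates the SR splicing factors (chromosome 1, 58410189 to 58424066, minus strand), was at 27.8, 19.6 and 24.1 CPM in sort 1, at 119.7, 186 and 193 CPM in sort 2 and at 184.5, 179 and 217 CPM in sort 3. The groups were far apart, at a log2 difference of -2.86 ± 0.21 (limma adjusted p = 0.000187). Rsrp1, a protein rich in arginine and serine, was at 9.88, 4.96 and 5.57 CPM in sort 1 and at 49.6 to 202 CPM in the later libraries, a difference of -3.76 ± 0.38 (limma adjusted p = 0.000511). Paxbp1, a binding partner of PAX transcription factors, was at 4.49, 3.60 and 7.88 CPM in sort 1 and at 25.5 to 74.5 CPM later, a difference of -2.92 ± 0.24 (limma adjusted p = 0.00024).

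Some of the falls lie where gene models overlap, so their reads may belong in part to the neighbour. Tnni3, the inhibitory troponin of heart muscle, overlaps Dnaaf3, an assembly factor of ciliary dynein arms, on chromosome 7. It was at 0.171, 0.216 and 0.206 CPM in sort 1, at 20.1, 53.6 and 15.1 CPM in sort 2 and at 8.69, 13.9 and 12.4 CPM in sort 3, and it had the largest fall of the genes named by the rule, -3.92 ± 0.42 (limma adjusted p = 0.000746). Ttll3, a tubulin glycylase, overlaps Arpc4, a subunit of the actin-nucleating Arp2/3 complex, and differed by -3.00 ± 0.31. Ankrd23, an ankyrin-repeat protein, overlaps the predicted gene Gm42417 and differed by -3.54 ± 0.39, from 0.758 to 1.67 CPM in sort 1 to 11.7 to 66.1 CPM later.

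Calls were counted by gene class, a split chosen after seeing which genes moved, with classes from GENCODE M21. Among 1098 long noncoding RNA genes 14.4% were lower in sort 1 and 0.455% higher, with a median difference of -0.37. Among 439 genes of the class TEC (transcribed loci whose product is still to be experimentally established) 31.7% were lower and 0 were higher, with a median of -0.93. Both classes were low, with median levels of 1.81 CPM (TEC) and 2.67 CPM (long noncoding RNA), against 17.3 CPM over all genes. A low gene can pass the filter through the 6 later libraries alone, but through sort 1 alone only with all 3 libraries. Among low genes the filter thus favours those higher in the later sorts. Without 1 library 384 to 418 TEC genes were tested for a later library and 435 to 439 for a sort 1 library. Among 12934 protein-coding genes 4.86% were lower and 2.07% higher, with a median of 0.04. Pseudogenes went the other way: of 1537, 8.20% were higher and 1.89% lower, with a median of 0.29. The medians of the noncoding, TEC and pseudogene classes kept their sign under the 3 other scalings, at -0.53 to -0.22, -1.14 to -0.74 and 0.13 to 0.38, while the protein-coding median turned to -0.16 after rescaling to the listed genes. Without 1 library the 158 lower long noncoding RNA genes ranged from 24 to 254, the 139 lower TEC genes from 17 to 223 and the 126 higher pseudogenes from 0 to 235. The lowest of these counts came without the sort 1 CD133+Nestin+ library (24, 18 and 0) or the sort 1 Nestin+ library (30, 17 and 0), and the highest without the sort 2 CD133+Nestin+ library. The counts also fell by over 1.5 times without the sort 1 CD133+ library (91, 87 and 21), the sort 2 CD133+ library (103, 87 and 31), the sort 2 Nestin+ library (93, 71 and 40) and the sort 3 Nestin+ library (101, 84 and 39), and were 209, 211 and 223 without the sort 3 CD133+Nestin+ library. Pseudogenes share sequence with their parent genes, so which copy their reads came from is uncertain.

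Within the protein-coding genes, those for which GENCODE lists a transcript that keeps an intron were lower in 6.41% of 7552 genes, against 2.69% of 5382 genes without one. The percentages were 6.59 and 2.92 among genes at a mean of 10 CPM or more, and 5.72 and 2.30 below it. Higher calls were 1.69% with such a transcript and 2.60% without. The share of lower calls rose over 4 equal bins of the number of exons, from 2.07% through 2.60% and 5.35% to 9.43%, and over 4 bins of transcript length, from 2.81% through 4.05% and 5.66% to 6.93%. It went from 3.28% through 4.33% and 6.16% to 5.69% over the bins of gene span, and from 5.72% through 5.04% and 4.24% to 4.45% over those of GC content. The count of lower genes with a retained-intron transcript was 484, and it was 821 without the sort 2 CD133+Nestin+ library, 69 without the sort 1 CD133+Nestin+ library and 65 without the sort 1 Nestin+ library. These properties are not independent of each other, and the gene table does not separate spliced from unspliced reads.

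**Figure D2:**
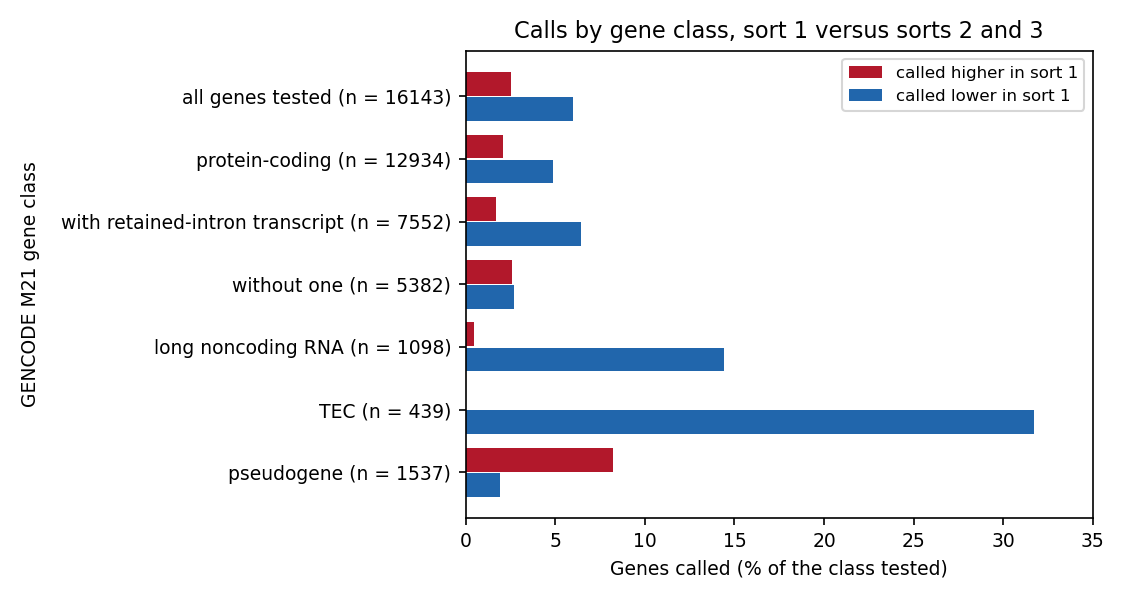
Percent of tested genes called higher (red) or lower (blue) in sort 1, for all genes and by GENCODE M21 class, with the number tested beside each. The classes are protein-coding, also split by a retained-intron transcript, long noncoding RNA, TEC and pseudogene. The 28 genes of other classes (21.4% higher) and the 107 symbols not matched to 1 gene are not drawn. In TEC genes and long noncoding RNAs lower calls outnumbered higher ones (31.7% and 14.4% lower), in pseudogenes higher calls did (8.20%), and most genes of each class were not called.

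Of 6 sex-linked genes on a list of Y-linked genes, Xist and Tsix, 4 were lower in sort 1, against 5.96% of all genes. All 6 lay below both later sorts in each population, against 17% of all genes tested, and their median was -1.64. Xist is also on the list of nuclear long noncoding RNAs. Ddx3y, a Y-linked RNA helicase, was at 18.9, 15.4 and 12.6 CPM in sort 1, at 42.1, 57.6 and 44.4 CPM in sort 2 and at 56.0, 49.2 and 41.1 CPM in sort 3, and differed by -1.57 ± 0.19 (limma adjusted p = 0.00142). Tsix, the antisense partner of Xist, differed by -1.70 ± 0.25, Eif2s3y, a translation initiation factor, by -2.14 ± 0.32, and Uty, a histone demethylase relative, by -1.97 ± 0.34. Xist at -1.01 and Kdm5d, a Y-linked histone demethylase, at -0.73 were not called. Xist and the Y-linked genes were both detected in every library, and both were at lower levels in sort 1. Of 8 Y-linked genes tested, 5 were lower. Chromosome X as a whole did not show this: of 583 genes 3.95% were lower and 2.92% higher, with a median of 0.17, against 6.02% and 2.52% of the autosomal genes. The 4 calls became 5 without the sort 2 CD133+Nestin+ library and 2 without the sort 1 CD133+Nestin+ or the sort 1 Nestin+ library.

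Of the 12 largest rises in sort 1 that the rule for named genes gave, 8 were in genes of microglia. Of 18 microglial and macrophage genes tested, 16 were higher in sort 1 and 0 lower, with a median log2 difference of 1.57. Sort 1 lay above both later sorts in all 3 populations for 17 of the 18, against 17.7% of all genes tested. The list's summed level was 5237, 719 and 251 CPM in sort 1, 1950, 156 and 104 CPM in sort 2 and 2510, 151.5 and 127.5 CPM in sort 3. The CD133+ library was thus far above the other populations in every sort, and sort 1 was the highest within each population. In these bulk libraries more cells of a type and more RNA per cell cannot be told apart.

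Fcrls, a receptor-like protein of microglia (chromosome 3, 87250758 to 87263738, minus strand), was at 386, 53.9 and 18.8 CPM in sort 1, at 124, 7.16 and 3.59 CPM in sort 2 and at 173, 5.95 and 4.16 CPM in sort 3. The CD133+ libraries of the later sorts exceeded the other sort 1 libraries, but within each population sort 1 was the highest, at a difference of 2.09 ± 0.26 (limma adjusted p = 0.00186). Cx3cr1, the receptor for fractalkine, was at 486, 61.8 and 23.6 CPM in sort 1, at 146, 7.82 and 8.47 CPM in sort 2 and at 206, 4.26 and 4.87 CPM in sort 3, a difference of 2.14 ± 0.33 (limma adjusted p = 0.005). Laptm5, a lysosomal membrane protein of blood-derived cells, was at 752, 112 and 28.9 CPM in sort 1, at 361, 19.1 and 7.27 CPM in sort 2 and at 367, 35.3 and 8.63 CPM in sort 3, a difference of 1.62 ± 0.25. Fcer1g, a signalling chain of Fc receptors, differed by 1.58 ± 0.26, and P2ry12, the ADP receptor by which resting microglia are known, by 1.80 ± 0.33.

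Other genes of microglia and macrophages, outside the list, were among the 12 largest rises: Adgre1, which encodes the F4/80 antigen, differed by 2.20 ± 0.44, Gpr34 by 2.07 ± 0.42, Mpeg1 by 2.02 ± 0.42, P2ry13 by 1.98 ± 0.34 and Siglech by 1.90 ± 0.30. Mpeg1 was at 108, 4.84 and 2.58 CPM in sort 1 and at 0.0332 to 12.1 CPM in the later libraries. The other 4 of the 12 are not microglial markers, and the histone gene Hist1h4d had the largest rise of the 12, at 2.68 ± 0.45 (limma adjusted p = 0.00696). The others were Gpr37l1, Tubb2b and Cpm. Tubb2b, a tubulin of immature neurons, was at 964, 505.5 and 715 CPM in sort 1, at 82.3, 123.5 and 317 CPM in sort 2 and at 218, 217.5 and 321 CPM in sort 3, above all later libraries, at a difference of 1.87 ± 0.36 (limma adjusted p = 0.0132). The gene Cpm, which encodes carboxypeptidase M and is not the unit, differed by 1.84 ± 0.44 (limma adjusted p = 0.03). The 2 list members not called were C1qc, a complement subunit, at 1.16 ± 0.33 (adjusted p = 0.0518), and Mrc1, the mannose receptor of macrophages at the borders of the brain, at 0.53 ± 0.28 (adjusted p = 0.238). Mrc1 was at 120, 4.26 and 1.75 CPM in sort 1, at 141, 1.82 and 0.554 CPM in sort 2 and at 114, 3.00 and 0.154 CPM in sort 3, so in CD133+ cells sort 2 was the highest.

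**Figure D3:**
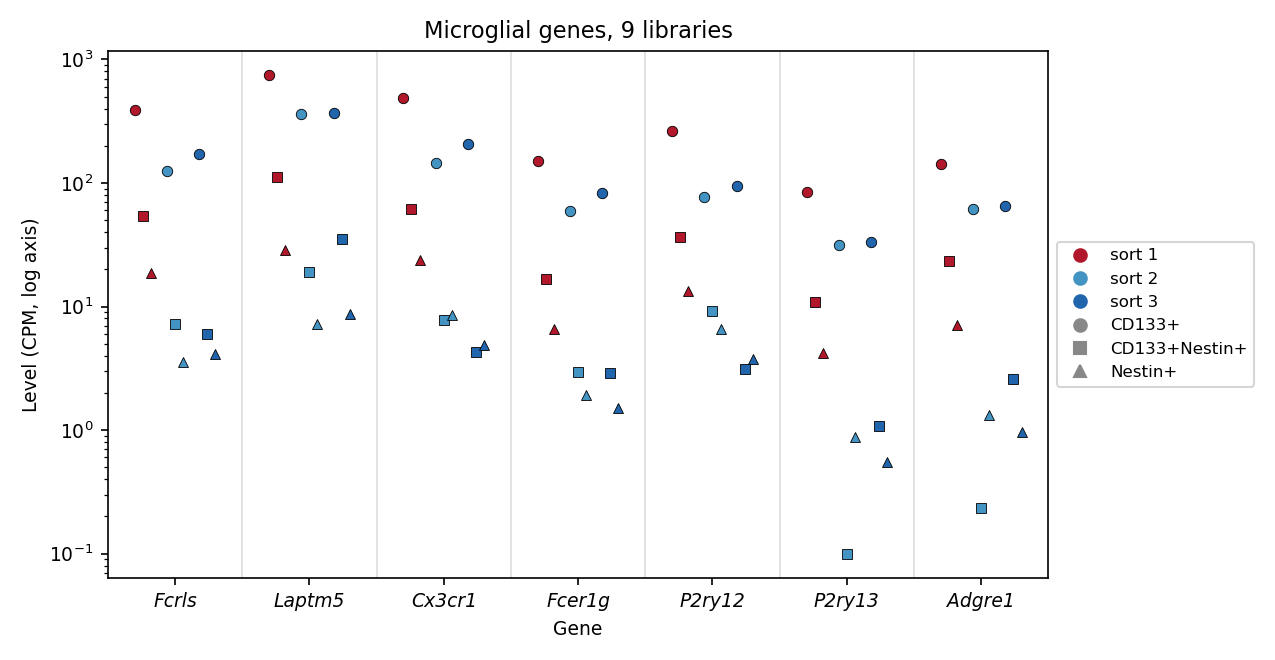
Level of 7 microglial genes (x axis) in CPM on a log axis (y axis), 1 point per library, colours for sorts and shapes for populations. Within each population (1 shape) the sort 1 point is the highest, and CD133+ libraries are the highest of each sort.

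Markers of other cells beside the ventricle did not share this pattern. Of 7 endothelial genes, 11 genes of mural cells and fibroblasts and 6 erythroid genes, 0 were called, with medians of -0.13, 0.02 and -0.06 (limma). Over all genes 2.52% were called higher, so lists this small can hold 0 calls at that share. Sort 1 lay above both later sorts in all 3 populations for 0, 1 and 0 of them, against 17.7% of all genes tested. The summed endothelial level was 1025, 145 and 85.6 CPM in sort 1, 1259, 43.3 and 57.4 CPM in sort 2 and 1697, 120 and 74.1 CPM in sort 3. It was highest in sort 1 in CD133+Nestin+ and in Nestin+ cells, but not in CD133+ cells. The summed erythroid level was 1538, 100.9 and 41.25 CPM in sort 1, 783.4, 61.63 and 344.3 CPM in sort 2 and 1060, 119.8 and 24.91 CPM in sort 3. It was highest in the CD133+ library of each sort, and in CD133+ cells it was highest in sort 1, but not in the other populations. All 16 microglial calls fell to 2 without the sort 1 CD133+Nestin+ library and to 6 without the sort 1 Nestin+ library, and were 17 without the sort 2 CD133+Nestin+ library and 16 after rescaling to the listed genes. A model without the population term called 0 of the 18.

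Immediate early genes were lower in sort 1. Of 21 tested, 10 were called lower (5.96% of all genes were) and 0 higher, and the median difference was -1.68. Sort 1 lay below both later sorts in all 3 populations for 15 of them, against 17% of all genes tested. Of the 10 called genes, 7 had a RefSeq promoter in the table, and 6 of these are shown: Fosb, Fos, Klf4 and Dusp1, picked from the 5 that hold the motif marked below, and Jun and Zfp36, which do not hold it. Junb is the one with the motif that is not shown. The sequences are those of RefSeq on GRCm38.p6, 5′ to 3′ on the strand of the gene, covering the 250 bases before the start, and capitals mark TGACG, part of the cAMP response element TGACGTCA, on either strand. The windows are chr7:19310046-19310295, minus strand, for Fosb; chr12:85473640-85473889, plus strand, for Fos; chr4:55532476-55532725, minus strand, for Klf4; chr17:26508473-26508722, minus strand, for Dusp1; chr4:95052223-95052472, minus strand, for Jun; and chr7:28379229-28379478, minus strand, for Zfp36.
Fosb: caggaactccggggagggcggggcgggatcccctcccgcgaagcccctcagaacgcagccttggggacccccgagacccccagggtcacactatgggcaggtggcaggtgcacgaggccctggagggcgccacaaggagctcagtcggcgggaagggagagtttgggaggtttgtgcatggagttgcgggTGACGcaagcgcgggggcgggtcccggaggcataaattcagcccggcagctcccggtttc
Fos: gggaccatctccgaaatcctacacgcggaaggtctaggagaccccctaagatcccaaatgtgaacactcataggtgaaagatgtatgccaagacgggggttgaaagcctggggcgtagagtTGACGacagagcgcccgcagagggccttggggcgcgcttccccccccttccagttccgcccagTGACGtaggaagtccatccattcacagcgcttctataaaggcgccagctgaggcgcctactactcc
Klf4: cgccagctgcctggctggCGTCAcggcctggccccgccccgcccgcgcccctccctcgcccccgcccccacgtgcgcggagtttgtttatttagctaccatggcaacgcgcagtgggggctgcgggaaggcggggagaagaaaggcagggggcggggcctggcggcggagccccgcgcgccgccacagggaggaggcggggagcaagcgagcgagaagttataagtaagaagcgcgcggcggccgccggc
Dusp1: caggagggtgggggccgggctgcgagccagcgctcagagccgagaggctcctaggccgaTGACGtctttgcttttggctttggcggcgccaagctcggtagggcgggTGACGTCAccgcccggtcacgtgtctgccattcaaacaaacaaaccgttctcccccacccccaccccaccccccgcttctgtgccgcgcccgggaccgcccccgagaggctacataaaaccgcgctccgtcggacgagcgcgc
Jun: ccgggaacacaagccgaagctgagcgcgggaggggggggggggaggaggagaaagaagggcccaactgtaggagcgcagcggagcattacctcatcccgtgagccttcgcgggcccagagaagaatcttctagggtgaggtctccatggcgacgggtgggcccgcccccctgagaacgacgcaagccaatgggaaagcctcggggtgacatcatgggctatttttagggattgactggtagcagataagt
Zfp36: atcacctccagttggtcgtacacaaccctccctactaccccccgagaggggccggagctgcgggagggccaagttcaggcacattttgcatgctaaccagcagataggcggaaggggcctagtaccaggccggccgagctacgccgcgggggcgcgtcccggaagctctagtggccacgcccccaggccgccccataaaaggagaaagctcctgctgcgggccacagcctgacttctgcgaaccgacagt

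RefSeq promoters were at hand for 17 of the 21 genes, and 4 motifs were searched on both strands. TGACG was in 11 of the 17 (64.7%), and in 30.0% of the 10733 tested genes with a promoter. The full element TGACGTCA, which contains TGACG, was in 2 of the 17 against 3.03%, the AP-1 site TGANTCA in 0 of the 17 against 5.26%, and the CArG box in 2 of the 17 against 1.38%. Of the 7 called genes with a promoter, 5 held TGACG, 1 held TGACGTCA, 0 held TGANTCA and 1 held a CArG box. TGACG was marked because it was the most frequent of the 4, a choice made after the counts were seen, and as the shortest it is also the most frequent over all genes. These are matches of letters in a short window and were not tested.

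Fosb, a partner of JUN in the AP-1 factor, had the largest fall. It was at 6.85, 3.49 and 0.928 CPM in sort 1, at 21.2, 23.03 and 15.9 CPM in sort 2 and at 105, 85.1 and 17.1 CPM in sort 3. Sort 1 lay below all 6 later libraries, at a difference of -3.05 ± 0.49 (limma adjusted p = 0.00554). Egr1, a zinc-finger factor, was at 54.5, 28.2 and 61.9 CPM in sort 1, at 103, 131 and 167.5 CPM in sort 2 and at 378, 284 and 155 CPM in sort 3, again with no overlap, and differed by -1.98 ± 0.40 (limma adjusted p = 0.0158). Klf4, a Krüppel-like factor, differed by -1.98 ± 0.39 and Junb, another AP-1 subunit, by -2.01 ± 0.47.

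For Fosb, Egr1 and Fos the highest library was the sort 3 CD133+ library. Fos, named after its values were seen, was at 258, 179 and 225 CPM in sort 1, at 400, 530 and 496 CPM in sort 2 and at 2311, 1613 and 600.4 CPM in sort 3, and differed by -1.84 ± 0.50 (limma adjusted p = 0.0463). Dusp1, a phosphatase that switches off MAP kinases, likewise named later, was at 10.5, 4.47 and 4.71 CPM in sort 1 and at 9.78 to 90.8 CPM in the later libraries, a difference of -2.34 ± 0.56. In the fit with the sorts as 3 levels, 6 of the 21 genes were lower in sort 1 than in sort 2 with a median of -1.04, and 13 were lower than in sort 3 with a median of -2.29. Sort 3 minus sort 2 had a median of 1.22 and 0 calls among the 21. Members with little difference were Jund at -0.04 ± 0.21 and Ier3 at 0.08 ± 0.67. The 10 calls became 0 without the sort 1 CD133+Nestin+ or the sort 1 Nestin+ library, 3 without the sort 1 CD133+ or the sort 3 Nestin+ library, 6 without the sort 3 CD133+ library and 13 without the sort 2 CD133+Nestin+ library.

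**Figure D4:**
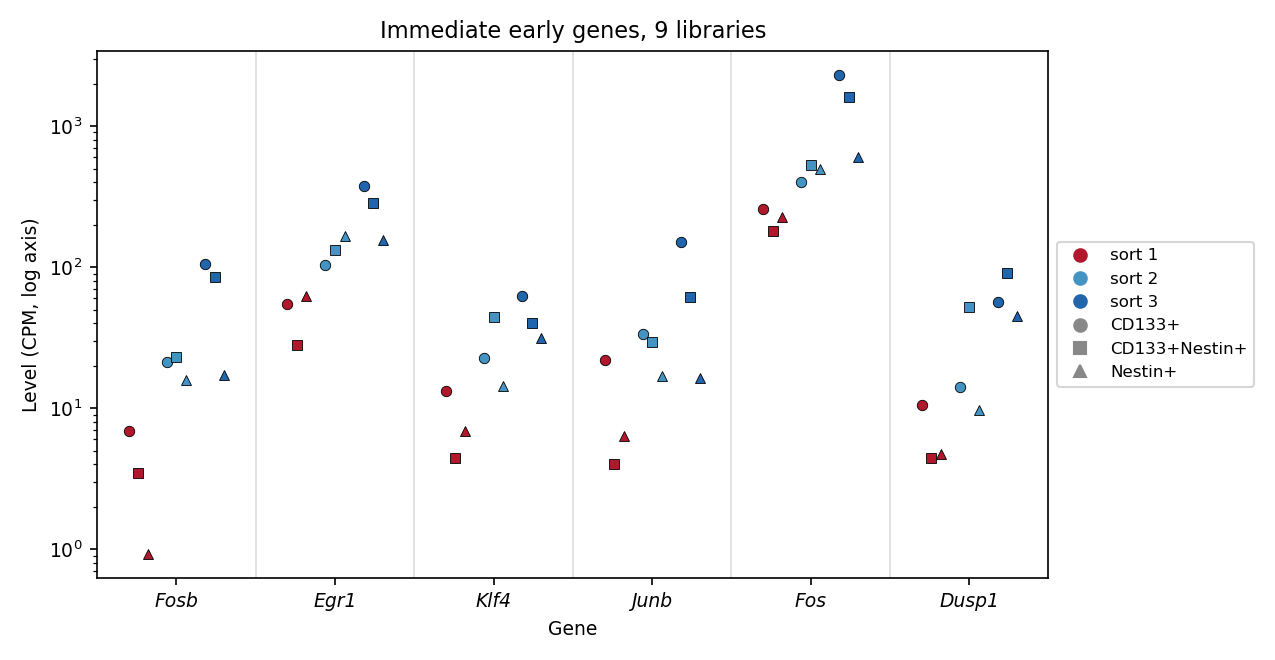
Level of 6 immediate early genes (x axis) in CPM on a log axis (y axis), 1 point per library, colours for sorts and shapes for populations. Sort 1 is the lowest within each population, and the highest Fos points are those of sort 3, at 2311 and 1613 CPM.

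Genes of translation and energy use were higher in sort 1 in part. Of 27 cytosolic ribosomal protein genes 9 were higher and 1 lower, against 2.52% higher and 5.96% lower of all genes, and sort 1 lay above both later sorts in all 3 populations for 22, against 17.7% of all genes. Rpsa was at 403, 370 and 389.5 CPM in sort 1, at 134, 70.6 and 218 CPM in sort 2 and at 222, 117 and 151 CPM in sort 3, with no overlap and a difference of 1.44 ± 0.27 (limma adjusted p = 0.0107). Rplp1 differed by 1.36 ± 0.28 and Rps2 by 0.91 ± 0.21, while Rpl5 went the other way at -1.25. In the fit with the sorts as 3 levels, 18 members were higher than in sort 2 (8.98% of all genes were) and 1 than in sort 3 (0.396%). The list's median was 0.83 and was above 0 under each scaling, at 0.60 to 0.90, and 3 to 16 members were called higher. These genes have many near-identical processed copies, so the level of each is uncertain. Their 9 calls became 0 without the sort 1 CD133+Nestin+ or the sort 1 Nestin+ library, 1 without the sort 1 CD133+, 2 without the sort 2 CD133+ or the sort 3 Nestin+, 3 without the sort 2 Nestin+ and 16 without the sort 2 or the sort 3 CD133+Nestin+ library.

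Of 20 nuclear genes of oxidative phosphorylation 2 were higher, Atp5g1 at 0.87 ± 0.21 and Atp5o at 0.88 ± 0.24, both subunits of ATP synthase, and the list's median was 0.58. The share of all genes called higher was 2.52%. Of 19 genes of hypoxia and glycolysis 3 were higher, among them Eno1, an enolase, at 1.15 ± 0.24, and Tpi1, a triosephosphate isomerase, at 1.08 ± 0.22. The last was Gapdh, at 0.98 ± 0.26, listed at only 10.9 to 44.5 CPM, a gene with very many processed copies. Both counts are unstable: median centring gave 8 oxidative phosphorylation and 7 hypoxia and glycolysis calls. In the fit with the sorts as 3 levels, 12 and 6 members were higher than in sort 2 (8.98% of all genes were). Against sort 3 both lists had 0 higher calls (0.396% of all genes), with medians of 0.36 and 0.10. Both lists had 0 calls without any 1 of the sort 1 libraries, and the first also without the CD133+ or the Nestin+ library of sort 2 or the Nestin+ library of sort 3. They had 6 and 5 without the sort 2 CD133+Nestin+ library, and 5 and 6 without the sort 3 CD133+Nestin+ library. The 15 mitochondrially encoded genes had 0 calls and a median of 0.08 (limma).

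Glial genes were higher in sort 1 in 5 of 18 members of the astrocyte and radial glia list, against 2.52% of all genes, and 0 were lower. The list's median was 0.82, with members from -0.90 to 1.66. In the fit with the sorts as 3 levels, 11 members were higher than in sort 2 (8.98% of all genes were). Against sort 3 it was 0 (0.396% of all genes), with a median of 0.53. Aqp4, the water channel of astrocyte endfeet, was at 196, 255.5 and 395 CPM in sort 1, at 53.7, 55.5 and 144 CPM in sort 2 and at 122, 94.0 and 74.9 CPM in sort 3, above all later libraries, and differed by 1.66 ± 0.31 (limma adjusted p = 0.011). Gfap, the astrocyte intermediate filament, was at 275, 165 and 70.5 CPM in sort 1, at 83.9, 32.3 and 27.3 CPM in sort 2 and at 157, 66.9 and 48.9 CPM in sort 3, a difference of 1.33 ± 0.31 (limma adjusted p = 0.0265). Slc1a2, the main glutamate transporter, differed by 1.13 ± 0.25 and S100b, a calcium-binding protein, by 0.93 ± 0.23. Gpr37l1, a receptor of glia that the rule for large rises gave, was at 86.0, 142.5 and 217 CPM in sort 1 and at 15.2 to 79.2 CPM later, a difference of 2.10 ± 0.38 (limma adjusted p = 0.00952). The list's 5 calls became 0 without the sort 1 CD133+Nestin+ or the sort 1 Nestin+ library, 1 without the sort 2 Nestin+, 2 without the sort 1 CD133+, the sort 2 CD133+ or the sort 3 Nestin+, and 8 without the sort 3 CD133+Nestin+ library.

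**Figure D5:**
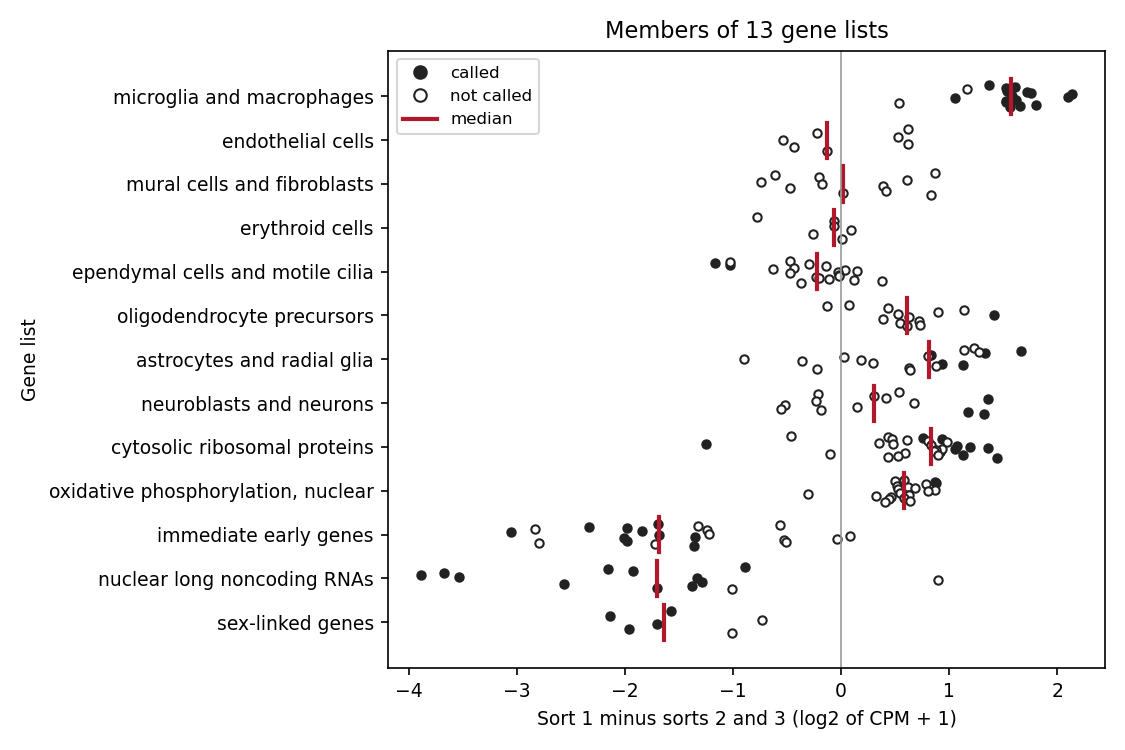
Difference of sort 1 from sorts 2 and 3 (x axis, log2 of CPM + 1) for each tested member of 13 gene lists (y axis), with filled points for called members, open points for the others and a red line at the list's median. Microglial genes lie to the right at a median of 1.57, and immediate early genes, nuclear long noncoding RNAs and sex-linked genes lie to the left at -1.68, -1.70 and -1.64.

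Sorts 2 and 3 were compared singly in a fit with the sorts as 3 levels, in which both contrasts share the sort 1 libraries. Sort 1 differed from sort 2 in 1450 higher genes (8.98%) and 1347 lower genes (8.34%), together 17.3% of those tested. It differed from sort 3 in 64 higher genes (0.396%) and 434 lower genes (2.69%), together 3.08%. The order reversed when sort 1 was fitted with only 1 later sort. In those fits 1211 genes were called against sort 2 (557 higher, 654 lower) and 2635 against sort 3 (1025 higher, 1610 lower). Which later sort differed more from sort 1 in number of calls thus depends on the fit. Without the sort 2 CD133+Nestin+ library, 2184 genes were called between sort 1 and sort 3. Firre differed by -3.62 from sort 2 and by -3.65 from sort 3, and Cx3cr1 by 1.98 and 2.29. Dhcr7, an enzyme of cholesterol synthesis, differed by 1.77 and 1.20, Cyr61, a matrix protein induced by growth factors, by -1.14 and -3.18, and Ccdc39, needed for motile cilia, by -1.51 and -0.82. Between sorts 3 and 2, limma called 0 genes, with 2215 at an unadjusted p under 0.05. A test of whether the sort 1 difference varied between populations called 0 genes by limma, with 61 at an unadjusted p under 0.05. As a share of the genes tested, the 2215 lie above that p threshold and the 61 below it. With so few libraries, 0 calls show neither that sorts 2 and 3 were alike nor that the sort 1 difference was alike across populations.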

How the data were processed

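RNA sequencing (total RNA, Illumina HiSeq, per the labels) covered 9 sorted samples, and all 9 library names carry the same run and lane. Per the submitters' processing notes, the build was mm10 and the tools included limma, Partek 8.0, STAR 2.5.3a and bcl2fastq. How reads were assigned to genes is not stated there or in the labels. The authors deposited normalized values whose unit is not stated. Judged from the values, these are CPM to which the authors added an offset of 0.0001, and the listed genes did not fill the CPM total. Values were not whole multiples of a read, so no count test was run. A second deposited table was not used.

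Samples were grouped by the sort number in their titles. Genes reaching 1 CPM in 3 or more libraries (16143, with 2186 removed) were fitted as log2(CPM + 1) on population and sort 1 in limma 3.58.1 (R 4.3.3, trended robust prior, 5 residual degrees of freedom, median prior 6.06), with Benjamini-Hochberg adjustment at 0.05. All fold changes are on that scale, which understates changes of low genes. On simulated data with 100 of 16143 genes changed at each size, 29% were recovered at a log2 of 1 and 87% at 2. The changed genes were drawn only from those with a mean above 10 CPM, so recovery of lower genes is not known. Over both sizes 116 changed genes were called, beside 8 false calls. Annotation is GENCODE M21 on GRCm38, the build of mm10, in which 16036 tested symbols matched 1 gene. 24 symbols altered into dates were kept and not named. Figures were drawn with matplotlib 3.10.9.

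The comparison, the lists and the rule for named genes were chosen with earlier results of these data known. The rule gave the 12 largest rises and 12 largest falls with the higher group averaging 10 CPM or more and the same side in all populations, without predicted genes, and up to 4 called members of smallest p from each of 43 lists. Genes outside it are said to be so, and some single-gene results are not reported here. Libraries of 1 population were treated as a block by the population term. Alternatives were the model without that term, 3 levels of sort, each later sort alone, a pseudocount of 0.1, no filter, a filter at 5 CPM, median centring, quantile normalization, rescaling to the listed genes, library weights, an untrended and non-robust prior, and omission of each library. Leaving out each population was added after seeing the data.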

Additional observations from a re-analysis of the deposited data

Results flagged for a closer look

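In 4 named genes the sort 1 library lay on opposite sides of both later sorts in different populations. A test of the difference itself, limma's interaction F test, gave an adjusted p of 1 for each. Prom1, which encodes CD133, was above both later sorts in Nestin+ cells and below both in CD133+ cells (unadjusted p = 0.636). Nes was above both in Nestin+ cells and below both in CD133+ cells (unadjusted p = 0.363). Pdgfra, the receptor of oligodendrocyte precursors, was above both in CD133+Nestin+ cells, at 168 CPM against 33.4 and 19.7 CPM, and below both in CD133+ cells, at 17.2 CPM against 26.97 and 31.8 CPM (unadjusted p = 0.00194). Ppp1r16b, a regulatory subunit of protein phosphatase, was above both in CD133+Nestin+ cells, at 35.6 CPM against 16.9 and 13.4 CPM, and below both in the other populations (unadjusted p = 0.0102). Pdgfra and Ppp1r16b were named because they were among the 5 genes of smallest interaction p, and with 1 library for each population and sort the interaction has little precision.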

How the results depend on the processing

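The direction of every called gene that is named by the rule was the same under all alternatives run. Calls of single named genes held in 391 of 567 fits without 1 library, in 674 of 756 of the other planned fits and in 79 of 188 fits without 1 population. The 1369 calls (407 higher, 962 lower) became 406 (31 and 375) without the population block, all of them among the 1369. With 3 levels of sort there were 2168 calls, 900 of them higher, and against sort 3 only there were 2635 (1025 and 1610). Quantile normalization gave 906 calls with 633 lower, median centring 1037 higher and rescaling to the listed genes 269 higher and 1614 lower. Library weights gave 5024 (2175 and 2849), from a weight estimate that stopped before it converged. Without 1 library the calls ranged from 134 to 2604, with 6 to 966 higher and 128 to 1638 lower. In the same fits the calls ranged from 279 to 2567 for sort 1 versus sort 2, from 33 to 2184 for sort 1 versus sort 3 and from 0 to 1 for sort 3 versus sort 2. Without the CD133+ libraries 276 genes were called (13 and 263), without the CD133+Nestin+ libraries 849 (157 higher) and without the Nestin+ libraries 29 (0 and 29). The cause of these changes was not tested, beyond the smaller number of libraries. Depth was not worked out, and levels near 0.03 CPM in single libraries limit the folds of low genes.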

Other observations

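Of 42 lists with a tested member, 22 held at least 1 call. Those not yet described held few, and are to be read against the shares of all genes called, 2.52% higher and 5.96% lower. Among neuronal genes 3 of 13 were higher in sort 1: Stmn2, a regulator of microtubules, at 1.17 ± 0.30 (SE), Gap43, a growth cone protein, at 1.36 ± 0.35, and Tubb3, a neuronal tubulin, at 1.32 ± 0.35, but 0 of them after rescaling to the listed genes. The neuronal list's median was 0.31, with members from -0.55 to 1.36, and against sort 3 alone it was 0.04 with 0 calls. Its summed level was 493, 705 and 989 CPM in sort 1. It was 367, 935.5 and 1139 CPM in sort 2 and 550, 976 and 1331 CPM in sort 3. Within each population the sum was thus highest in sort 3. Of 13 genes of oligodendrocyte precursors, Olig1 was higher, at 1.42 ± 0.37, and of 20 ependymal genes Ccdc39 and Cfap43 were lower, at -1.17 ± 0.28 and -1.03 ± 0.25. The ependymal list's median was -0.22, with members from -1.17 to 0.38. Against sort 2 alone it was -0.43 with 5 members lower, and against sort 3 alone it was 0.08 with 0 calls. The summed ependymal level was lowest in sort 1 in CD133+ and CD133+Nestin+ cells, but highest in sort 1 in Nestin+ cells. Without any 1 of the sort 1 libraries the neuronal and the ependymal list had 0 calls. The neuronal list also had 0 without the sort 2 CD133+ or the sort 3 Nestin+ library and 1 without the sort 2 Nestin+ library, and the ependymal list had 0 to 3 over the later libraries. Of 14 core genes of the RAS pathway 1 was lower, a share near that of all genes, and it was Braf, at 29.1, 31.2 and 31.8 CPM in sort 1, 68.9, 73.3 and 72.2 CPM in sort 2 and 60.8, 77.0 and 115 CPM in sort 3, a difference of -1.29 ± 0.20 (limma adjusted p = 0.00474). Braf overlaps Ndufb2 on the other strand.

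Single calls were also made for Hsf2, Mdm2 and Cyr61, which were lower, at -0.96, -0.80 and -2.16, and for B2m, Apcdd1, Dhcr7 and Gpr50, which were higher, at 1.13, 1.09, 1.49 and 0.79. For the list of each of these genes, and for those of Olig1 and Braf, such calls went down to 0 when 1 library was left out. Of 7 replication-dependent histone genes 2 were higher, Hist1h4d at 2.68 ± 0.45 and Hist1h1e at 1.07 ± 0.23. The histone list's median was -0.07, and it had 0 to 2 higher calls when 1 library was left out. Hist1h4d was at 14.2, 18.3 and 28.4 CPM in sort 1 and at 0.0995 to 7.05 CPM in the later libraries, while 0 of 19 genes of DNA replication were called, with a median of 0.58, and 0 of 20 mitotic genes, with a median of 0.33 (limma).

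An abundant row stood out after its values were seen. CT010467.1 was at 23370, 18300 and 24840 CPM in sort 1, at 14090, 4200 and 11960 CPM in sort 2 and at 8917, 1926 and 1269 CPM in sort 3. It was above all later libraries, at a difference of 2.14 ± 0.61 with a limma adjusted p of 0.0541, which misses the threshold.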
